A study of Mus musculus with 6 samples.

Results

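CD34+Flt3- LSK cells were set against CD34-Flt3- LSK cells, 2 arrays against 2, across 18193 mouse genes. The arrays were chosen by the population in their titles and make up 4 of the 6 Affymetrix arrays in the series. The other 2 arrays held CD34+Flt3hi LSK cells and entered only the estimate of the spread and the levels given for orientation. All cells were sorted from bone marrow of mice aged 10 to 14 weeks. The labels used here name no strain, genotype, sex or treatment, and all 3 populations share the lineage-negative, Kit+ and Sca1+ gate (LSK). They are silent on whether the arrays of a population came from different animals or sorts, so the p-values measure only the spread between arrays, which may be technical.

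The LSK gate of adult mouse marrow holds the blood-forming stem cells and the earliest multipotent progenitors. In adult mice the CD34-Flt3- fraction is known to be rich in long-term stem cells, most of which are out of the cell cycle. Cells that gain CD34 but still lack the cytokine receptor Flt3 are known as short-term stem cells or early multipotent progenitors, and they divide more often and sustain blood formation for a shorter time. The comparison addresses which genes differ between these functionally separate populations.

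Each gene was read from 1 probe set, the one with the highest mean over the 6 arrays, and all values are log2 intensities unless a fold is named. Levels are not compared between genes, since probe sets differ in brightness. Background was a log2 of 4.50, taken at the 90th percentile of 27 bacterial controls, and 26.7% of genes had a mean below it. The CD34-Flt3- arrays differed from each other by over 2-fold in 1352 genes (7.43%), against 476 (2.62%) for the CD34+Flt3- arrays. For the CD34+Flt3hi arrays it was 112 genes (0.62%). The 3' actin control read 7693 and 7368 in linear intensity for CD34-Flt3- cells, below the 12963 and 12587 of CD34+Flt3- cells. The ratio of 3' to 5' signal, a sign of RNA quality, was 5.04 and 6.34 for the GAPDH control in CD34-Flt3- cells and 6.83 and 7.50 in CD34+Flt3- cells, without overlap. For the actin control it was 3.58 and 5.55 against 3.25 and 4.44. The sample titles carry a code of unstated meaning, called A, B or C here. Replicate 2 of both populations carries code A, replicate 1 of CD34-Flt3- carries C and replicate 1 of CD34+Flt3- carries B. The part of the actin level, the 3' to 5' ratios, the codes and the replicate differences in the results was not tested.

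The antigens of the sort were read first. Cd34, the sialomucin used for the gate, was 8.78 and 9.45 in CD34-Flt3- cells and 10.51 and 10.68 in CD34+Flt3- cells. Both CD34+Flt3- arrays lay above both CD34-Flt3- arrays, and Cd34 rose by 1.48 ± 0.24 (SE, 2 arrays per group, limma adjusted p = 0.0194). Each SE here comes from limma's spread pooled over all 3 populations. It can be smaller than the spread of the compared arrays alone. Fewer cells of a type and less RNA per cell cannot be told apart in such bulk values. Flt3, the receptor absent from both gates, was 7.65 and 9.16 against 8.84 and 9.81, a difference of 0.92 ± 0.45 that did not pass (adjusted p = 0.34). Flt3 stood at 12.01 and 11.75 in the CD34+Flt3hi cells. Kit, the stem cell factor receptor shared by all 3 gates, was 10.99 and 9.83 against 10.26 and 8.82 (adjusted p = 0.385). The arrays of the populations overlapped for both Flt3 and Kit, and replicate 1 was the higher Kit array of each.

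At a limma adjusted p under 0.05, 382 genes (2.1% of those tested) differed. Of these, 140 (0.77%) were higher in CD34+Flt3- cells and 242 (1.33%) were lower. Each count of called genes in a list below is to be read beside these shares of all genes. The rises ran from 0.66 to 3.54 with a median of 1.73, and 136 of them were at least 2-fold. The falls ran from 0.70 to 4.91 in size with a median of 1.60, and 229 of them were at least 2-fold. The arrays of the populations did not overlap for 8041 genes (44.2%), of which 2835 (15.6%) were higher and 5206 (28.6%) lower in CD34+Flt3- cells. Over all genes 11098 differences were negative and 7095 positive, and counts of signs in the lists below are to be read beside these. The median of all genes was -0.10, and a second quantile normalization moved it to -0.03 and the calls to 253 higher and 245 lower.

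The number of calls rested strongly on single arrays. Without CD34+Flt3- replicate 2 no gene passed limma's threshold (0 of 18193), while 1569 had an unadjusted p under 0.05. Without CD34+Flt3- replicate 1, 21 rises and 62 falls passed. The calls numbered 15 and 30 without CD34+Flt3hi replicate 1, and 15 and 33 without CD34+Flt3hi replicate 2. Without CD34-Flt3- replicate 1 there were 360 rises and 532 falls, and without CD34-Flt3- replicate 2 there were 241 and 742. A fit that leaves 1 array in a population takes no spread from that population. The CD34-Flt3- arrays differed most, so larger counts without 1 of them, here or in a list below, are not firmer support. None of the 382 differences changed sign without any 1 array. Where the arrays of the populations do not overlap this is fixed in advance, so it is not separate support. Every count of called genes in a list below falls to 0 without CD34+Flt3- replicate 2.

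Probe sets of a gene did not always move together. Among called genes named below, Abca3, Ccnd2, Il6st, Incenp, Jam2, Meg3, Ndn, Pclaf, Prdm16, Rora, Satb1, Socs2 and Spag5 had other probe sets on both sides of 0. The other probe sets of Cd82, Fhl1, Ifngr2 and Ms4a2 had the opposite sign, at 0.04, 0.35, -0.23 and -0.05.

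**Figure D1:**
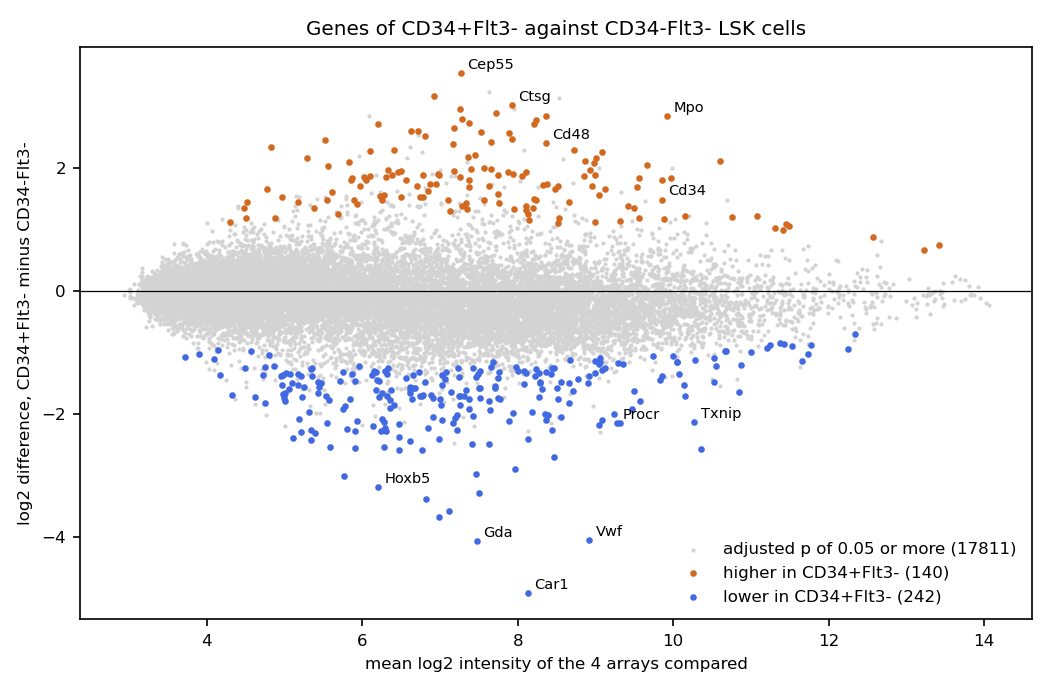
Each point is 1 gene, with its mean log2 intensity over the 4 arrays on the x axis and its log2 difference, CD34+Flt3- minus CD34-Flt3-, on the y axis. Orange points are the 140 genes called higher in CD34+Flt3- cells and blue points the 242 called lower at a limma adjusted p under 0.05, and a few named genes are labelled.

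The 12 rises with the widest gap between the nearest arrays of the populations included genes of cell division and of myeloid progenitors. Cep55, a midbody protein of the last step of cell separation, was 5.80 and 5.20 in CD34-Flt3- cells and 8.98 and 9.09 in CD34+Flt3- cells. It rose by 3.54 ± 0.28 (adjusted p = 0.00403), which was the largest rise of the 140, with a gap of 3.18 between the nearest arrays. Another probe set of the gene differed by 0.66. Mpo, the myeloperoxidase of neutrophil granules, was 8.32 and 8.70 against 10.98 and 11.70 and rose by 2.83 ± 0.27 (adjusted p = 0.00456). Ctsg, the granule protease cathepsin G, was 6.18 and 6.65 against 9.02 and 9.83, with a rise of 3.01 ± 0.41 (adjusted p = 0.0141). The arrays of the populations lie apart in all 12 because the genes were chosen by that gap. Cd48, a SLAM family surface protein that is used to gate stem cells away from progenitors, was 7.07 and 7.26 against 9.36 and 9.75 and rose by 2.39 ± 0.25 (adjusted p = 0.00648). In CD34+Flt3hi cells Cd48 stood at 10.67 and 10.30.

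Nlrc3, a member of the NOD-like receptor family, was 4.51 and 5.20 against 7.37 and 7.75 and rose by 2.70, and CD34-Flt3- replicate 1 lay at the background. Iqgap3, a scaffold protein of dividing cells, was 6.13 and 5.57 against 8.30 and 8.70, a rise of 2.64. Tcf19, a nuclear factor tied to the G1 to S transition, was 6.45 and 5.32 against 8.62 and 8.75. In these genes the CD34+Flt3- arrays differed from each other by less than the gap to the CD34-Flt3- arrays. Bex6 was 5.44 and 6.57 against 8.49 and 8.97, a rise of 2.72, and stood at 10.82 and 10.40 in CD34+Flt3hi cells. Spag5, a spindle protein, Pclaf, the PCNA clamp associated factor, Cenpf, a kinetochore protein, and Depdc1b completed the 12 with rises between 2.29 and 2.94. Pclaf and Cenpf depended on the CD34-Flt3- array used. The difference of Pclaf was 3.59 without replicate 1 and 1.96 without replicate 2, and that of Cenpf 3.77 and 2.12.

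The 12 best separated falls began with Gda, the guanine deaminase, at 9.93 and 9.09 in CD34-Flt3- cells and 5.89 and 4.99 in CD34+Flt3- cells. It fell by 4.07 ± 0.39 (adjusted p = 0.00456), and its other probe sets differed by -2.75 to -0.68. Unc45b, a myosin chaperone, was 8.27 and 8.77 against 5.39 and 4.85 and fell by 3.39 ± 0.30 (adjusted p = 0.00456). Hoxb5, a homeobox factor known to mark stem cells of long-term potential, was 7.59 and 8.01 against 4.90 and 4.31 and fell by 3.19 ± 0.30 (adjusted p = 0.00456). The choice by gap again fixed that the arrays of the populations lie apart. Hoxb5 lay at 4.14 and 3.85, below background, in CD34+Flt3hi cells. Fscn1, the actin bundler fascin, was 8.89 and 9.42 against 6.13 and 5.59 and fell by 3.29 ± 0.48 (adjusted p = 0.0171). Its other probe sets differed by -0.79 to -0.03.

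Car1, carbonic anhydrase 1 of the red cell lineage, had the largest fall of all called genes, 4.91 ± 0.73 (adjusted p = 0.0172). Its levels were 11.98 and 9.19 in CD34-Flt3- cells and 6.28 and 5.07 in CD34+Flt3- cells, so replicate 1 was the higher array of both populations. The difference was -3.52 without CD34-Flt3- replicate 1 and -6.31 without replicate 2. Vwf, the von Willebrand factor of platelets and endothelium, was 11.12 and 10.78 against 8.25 and 5.53, with a fall of 4.06 ± 0.67 (adjusted p = 0.0197). Here the CD34+Flt3- arrays were far apart, and the difference was -5.42 without CD34+Flt3- replicate 1 and -2.70 without replicate 2. Trib2, a pseudokinase, was 7.90 and 6.65 against 4.51 and 4.01, at least a 6.83-fold fall because the mean of CD34+Flt3- cells lay below background. Its other probe sets differed by 0.04 to 0.09, and the fitted difference of -3.02 was -2.39 and -3.65 without CD34-Flt3- replicate 1 or 2. Cldn12, a claudin, fell by 2.26 and Tns2, a tensin of focal adhesions, by 2.28, each with close replicates in both populations.

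**Figure D2:**
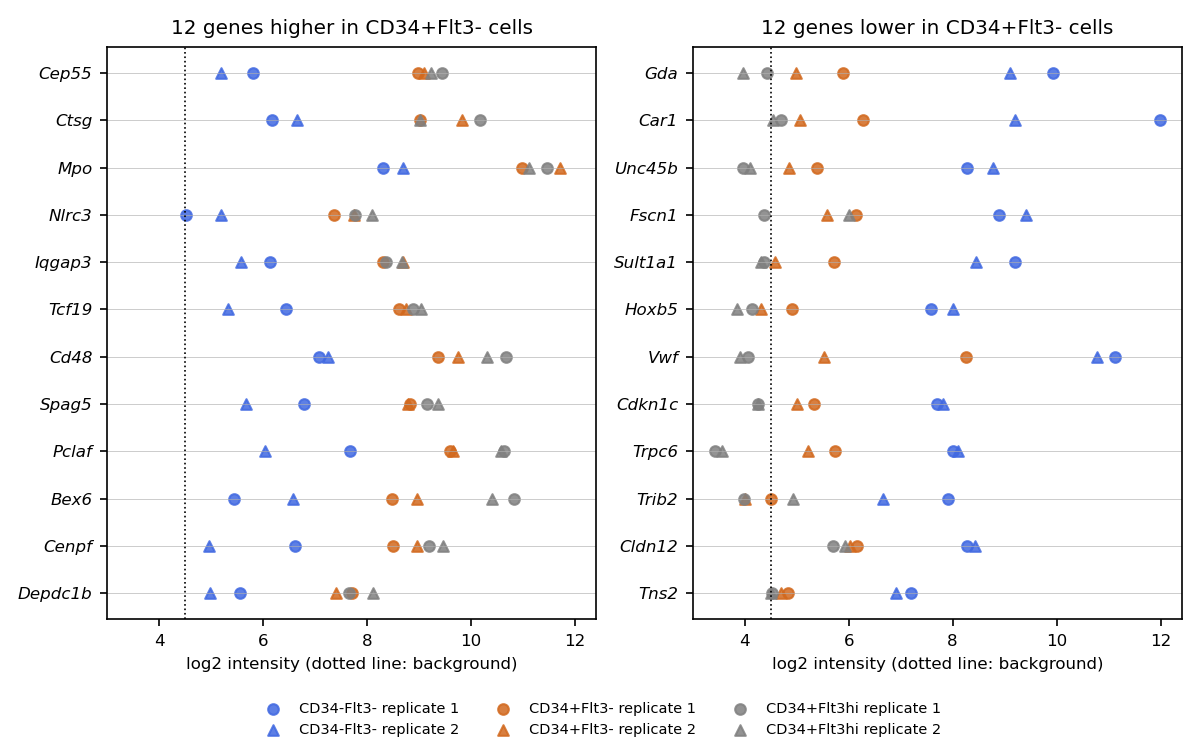
The log2 intensity (x axis) of the 12 rises and the 12 falls with the widest gap between the populations is drawn on each array, with blue for CD34-Flt3-, orange for CD34+Flt3-, grey for CD34+Flt3hi, circles for replicate 1 and triangles for replicate 2. The dotted line is the background of 4.50, and Vwf and Car1 show replicates of a population far apart.

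Of 37 measured surface and signalling genes known from long-term stem cells, 15 fell in CD34+Flt3- cells, where 1.33% of all genes did. A negative difference was seen in 33, and 27 were lower on every CD34+Flt3- array than on either CD34-Flt3- array, against 28.6% of all genes. The median of the list was -1.19, against -0.10 over all genes. This list and those below were chosen with earlier results of these data known. Their shares are therefore descriptions and not independent support. Sult1a1, a sulfotransferase, was 9.20 and 8.45 against 5.71 and 4.58 and fell by 3.68 ± 0.40 (adjusted p = 0.00656). Trpc6, a calcium channel, was 8.01 and 8.11 against 5.73 and 5.23 and fell by 2.59 ± 0.28 (adjusted p = 0.00656). Both genes are also among the 12 falls chosen by gap, and Trpc6 was below background in CD34+Flt3hi cells at 3.43 and 3.56. Procr, the endothelial protein C receptor and a stem cell marker, was 10.51 and 10.18 against 8.47 and 7.93, a fall of 2.15 (adjusted p = 0.0141). Slamf1, the SLAM receptor CD150, was 7.33 and 7.36 against 5.80 and 5.17, a fall of 1.86 (adjusted p = 0.0205). The CD34-Flt3- arrays nearly coincided for Slamf1.

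Abcb1a, a multidrug efflux pump, fell at least 3.51-fold and Jam2, a junctional adhesion molecule, at least 2.58-fold, both to a mean below background. Mllt3, a factor of the elongation machinery known to sustain stem cells, fell by 2.71, with differences of -3.50 and -1.91 without CD34+Flt3- replicate 1 and 2. Fstl1, a secreted follistatin-like protein, fell by 2.49. Fgd5, a gene used to label stem cells in reporter mice, fell by 1.97, and Robo4, a guidance receptor of endothelium and stem cells, by 1.76. Itgb3, the integrin beta 3 subunit, fell by 2.13, or by 2.98 and 1.28 without CD34+Flt3- replicate 1 and 2. Fhl1 and Adgrg1 also fell, by 1.92 and 1.14. Several well-known members did not pass. Tek, the Tie2 receptor, was 8.41 and 7.49 against 7.54 and 4.74 (difference -1.81, adjusted p = 0.234), and its arrays overlapped between the populations. Esam differed by -1.02 (adjusted p = 0.0848) and Abcg2, the side population efflux pump, by -1.19 (adjusted p = 0.0802). Itga2b, the integrin CD41, differed by 0.00 (adjusted p = 0.998). Tek, Esam, Abcg2 and Itga2b were named after their values were seen. The list had 14 and 19 falls without CD34-Flt3- replicate 1 or 2, 10 without CD34+Flt3- replicate 1, and 5 without either CD34+Flt3hi array.

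Of 42 measured transcription factors of stem cells 9 fell (21.4%, against 1.33% of all genes). A negative difference was seen in 39, and 26 were lower on every CD34+Flt3- array (28.6% of all genes were). The median of the list was -0.74. Beside Hoxb5, Prdm16, a zinc finger factor needed for stem cell maintenance, was 8.08 and 8.25 against 6.65 and 6.26 and fell by 1.72 (adjusted p = 0.0179). Gata3 was 7.31 and 7.04 against 5.95 and 5.17, a fall of 1.61 (adjusted p = 0.0365). Gfi1b, a repressor of stem and erythroid-megakaryocytic cells, was 8.93 and 8.81 against 7.72 and 7.49 and fell by 1.27. In each of these the groups of arrays were apart by more than their replicates. Mecom, the Evi1 locus, was 10.69 and 9.58 against 8.67 and 7.41 and fell by 2.10 (adjusted p = 0.0459), with replicate 1 the higher in both populations. The fall of Mecom was 2.73 without CD34+Flt3- replicate 1 and 1.47 without replicate 2. Runx1t1 fell at least 2.25-fold, and Rora, Hlf and Pbx3 fell by 1.70, 1.54 and 1.43. Meis1, a Hox cofactor, differed by -0.76 (adjusted p = 0.139) and Gata2 by -0.55 (adjusted p = 0.331) and did not pass. The 9 falls became 14 and 15 without CD34-Flt3- replicate 1 or 2, 2 without CD34+Flt3- replicate 1, and 1 without either CD34+Flt3hi array.

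Among 31 imprinted genes, which are expressed from 1 parental allele, 3 fell (9.68%, against 1.33% of all genes) and the median was -0.21. Cdkn1c, the p57 inhibitor of cyclin-dependent kinases known to hold stem cells in quiescence, was 7.70 and 7.82 against 5.33 and 5.01 and fell by 2.59 ± 0.26 (adjusted p = 0.00613). Ndn, necdin, was 10.52 and 10.26 against 8.42 and 8.06 and fell by 2.15 (adjusted p = 0.0134). Both were lower on all CD34+Flt3- arrays with replicates close together. Meg3, a maternally expressed noncoding RNA, was 9.37 and 9.31 against 7.90 and 5.96 and fell by 2.41 (adjusted p = 0.0461). The CD34+Flt3- arrays differed for Meg3, and the fall was 3.38 without replicate 1 and 1.44 without replicate 2. The falls of the list numbered 5 without CD34-Flt3- replicate 2.

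Efflux transporters and detoxifying enzymes, which stem cells are known to use against toxic compounds, gave 7 falls of 49 with a median of -0.41. This was 14.3%, against 1.33% of all genes. Gda, Sult1a1 and Abcb1a were given above. Aldh1a7, an aldehyde dehydrogenase, fell at least 2.53-fold to a mean below background. Gstt1 and Gstm1, glutathione transferases, fell by 1.39 and 1.14, and Abca3, a lipid transporter, by 1.30. The falls of this list numbered 14 without CD34-Flt3- replicate 2, 4 without CD34+Flt3- replicate 1, and 3 without either CD34+Flt3hi array.

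Genes of mitosis, which build the spindle, condense chromosomes and separate the daughter cells, were the list with most rises. Of 75 measured, 37 rose, 74 had a positive difference and 70 were higher on both CD34+Flt3- arrays than on either CD34-Flt3- array, against 15.6% of all genes. The median difference was 1.87. A second quantile normalization gave 57 rises and median centring 49. The promoters of the 4 best supported members in the promoter table are shown as a description. The first listed window of each gene runs from 250 bases before to 50 after the start of the gene, in RefSeq's GRCm38.p6, 5′ to 3′ on the strand of the gene. The following motifs, known from cell cycle promoters, were searched on both strands: CCAAT, the NF-Y box; TTTGAA, the core of the CHR element; and GCGGGAA, an E2F site. Capitals mark each match, written as it reads on the strand shown, so that ATTGG and TTCAAA are matches of CCAAT and TTTGAA on the other strand.
Cep55, chr19:38054734-38055033, plus strand: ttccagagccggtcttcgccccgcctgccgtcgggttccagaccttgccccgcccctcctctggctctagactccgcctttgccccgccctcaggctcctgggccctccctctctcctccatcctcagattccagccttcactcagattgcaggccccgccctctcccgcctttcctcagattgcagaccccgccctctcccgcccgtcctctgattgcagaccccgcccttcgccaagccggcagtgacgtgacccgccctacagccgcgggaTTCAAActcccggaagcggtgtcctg
Ncaph, chr2:127133905-127134204, minus strand: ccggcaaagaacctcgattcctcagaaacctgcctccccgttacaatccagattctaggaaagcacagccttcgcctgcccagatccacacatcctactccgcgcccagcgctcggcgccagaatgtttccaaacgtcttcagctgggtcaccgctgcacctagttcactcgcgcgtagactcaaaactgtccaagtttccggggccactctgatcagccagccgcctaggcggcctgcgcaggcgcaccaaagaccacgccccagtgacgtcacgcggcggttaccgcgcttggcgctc
Ect2, chr3:27153829-27154128, minus strand: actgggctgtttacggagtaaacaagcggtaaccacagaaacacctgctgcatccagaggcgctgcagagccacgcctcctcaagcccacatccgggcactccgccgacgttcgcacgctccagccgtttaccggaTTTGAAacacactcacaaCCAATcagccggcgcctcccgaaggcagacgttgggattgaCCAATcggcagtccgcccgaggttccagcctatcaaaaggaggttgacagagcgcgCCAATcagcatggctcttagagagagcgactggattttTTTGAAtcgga
Kif4, chrX:100625815-100626114, plus strand: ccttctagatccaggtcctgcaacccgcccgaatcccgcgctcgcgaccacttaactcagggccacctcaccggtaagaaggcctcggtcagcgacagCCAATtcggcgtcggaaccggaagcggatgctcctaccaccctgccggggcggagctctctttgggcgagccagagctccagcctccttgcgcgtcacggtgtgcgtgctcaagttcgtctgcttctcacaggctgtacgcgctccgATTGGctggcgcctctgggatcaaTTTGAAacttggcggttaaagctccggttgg
The Ect2 window held 3 CCAAT and 2 TTTGAA matches, Kif4 held 2 and 1, Cep55 held 1 TTTGAA and Ncaph held none of the 3 motifs. Of the 63 mitosis genes with a window, 41 (65.1%) held TTTGAA and 44 (69.8%) held CCAAT. Over all 14368 array genes with a window the shares were 13.3% and 38.2%. GCGGGAA was in 7 (11.1%) of the mitosis windows and in 6.97% of all. A match is a description of these letters and not a measured binding site. The shares count every listed gene with a window, called or not, so they describe the list and not its rise.

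Ncaph, a condensin subunit, was 7.39 and 6.86 in CD34-Flt3- cells and 9.05 and 8.92 in CD34+Flt3- cells, a rise of 1.86 (adjusted p = 0.015). Ect2, the exchange factor that starts cytokinesis, was 4.78 and 3.80 against 6.87 and 6.61 and rose at least 4.29-fold from a mean below background (adjusted p = 0.0167). Kif4, a chromosome-bound kinesin, was 5.57 and 5.32 against 7.16 and 7.50, a rise of 1.88 (adjusted p = 0.0171). Incenp, of the chromosomal passenger complex, was 8.92 and 8.47 against 10.31 and 10.43 and rose by 1.68 (adjusted p = 0.0141). All of these were higher on each CD34+Flt3- array, and in all of them CD34-Flt3- replicate 1 lay above replicate 2. The same order held in 68 of the 75 genes of the list. The median difference between the CD34-Flt3- arrays was 1.25, and 45 of the genes differed by over 2-fold between them. Ccna2, cyclin A2, stood at 8.53 and 5.40 in CD34-Flt3- cells and 10.02 and 10.18 in CD34+Flt3- cells, a difference of 3.13 that did not pass (adjusted p = 0.065). The median of the list was 2.40 with CD34-Flt3- replicate 2 alone and 1.24 with replicate 1 alone. The rises numbered 68 without CD34-Flt3- replicate 1 and 47 without replicate 2. They numbered 1 without CD34+Flt3- replicate 1 and 2 without either CD34+Flt3hi array.

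**Figure D3:**
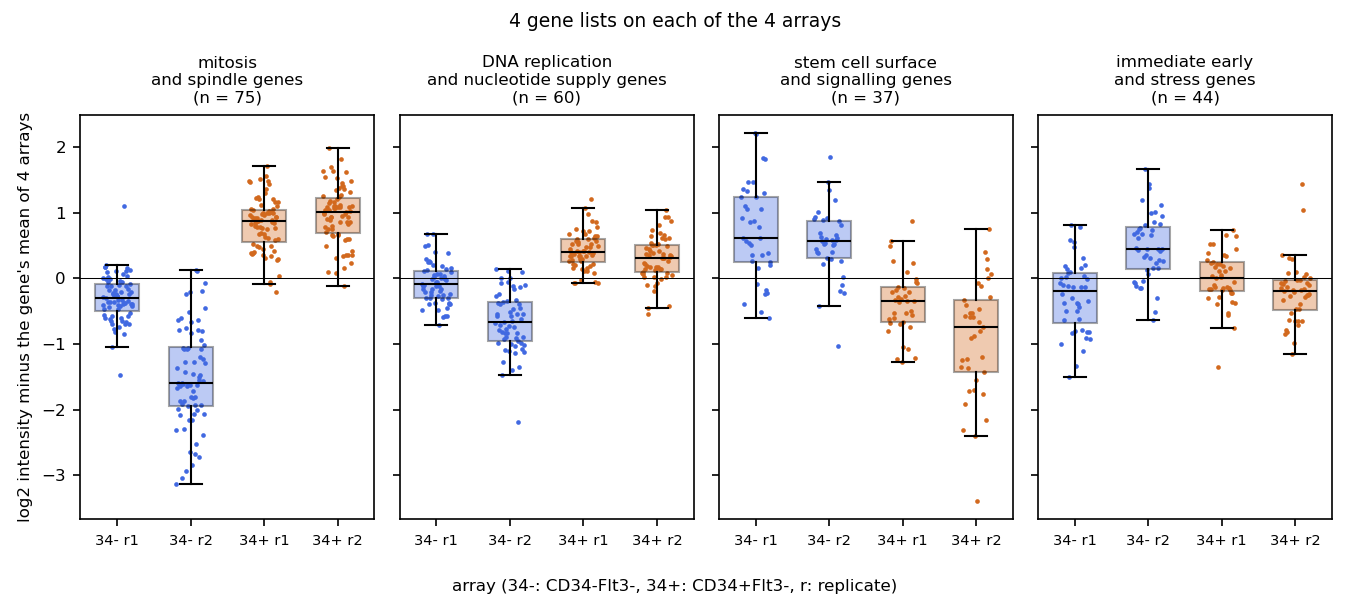
Each point is a gene of 1 of 4 lists on 1 of the 4 arrays (x axis), as its log2 intensity minus the gene's mean of the 4 arrays (y axis), with blue for CD34-Flt3- and orange for CD34+Flt3-. Boxes span the quartiles with the median as a line and whiskers to the outermost gene that is no outlier. The mitosis genes sit lowest on CD34-Flt3- replicate 2, and the surface genes of stem cells sit highest on both CD34-Flt3- arrays.

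DNA replication and nucleotide supply genes, which copy the genome in S phase, gave 8 rises of 60 (13.3%, against 0.77% of all genes). The median was 0.74. Tk1, thymidine kinase, rose by 1.93, Pola1, the catalytic subunit of polymerase alpha, by 1.89 and Uhrf1, which guides maintenance methylation of DNA, by 1.56. Another probe set of Pola1 differed by -0.24. Clspn, Asf1b, Prim1, Pold1 and Lig1 rose by 1.14 to 1.52. The CD34-Flt3- arrays differed here too, with a median of 0.59, replicate 1 over replicate 2. A second quantile normalization gave 23 rises and median centring 13. The median was 1.05 with 34 rises without replicate 1, and 0.44 with 9 rises without replicate 2. No gene of the list passed limma's test (0 of 60) without CD34+Flt3- replicate 1 or without either CD34+Flt3hi array. The E2F motif GCGGGAA was in 18 of 51 windows of these genes (35.3%). Of 44 DNA repair and checkpoint genes, 1 passed, close to the 0.77% of all genes called higher. This was the glycosylase gene Neil3 with a rise of 1.25 (adjusted p = 0.049), and the median of the list was 0.45. Its rises numbered 10 and 5 without CD34-Flt3- replicate 1 and 2, 7 after a second quantile normalization and 6 after median centring.

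The G1 cyclins, their kinases and the E2F family moved in both directions, with 4 rises (15.4%) and 1 fall (3.85%) of 26. Over all genes the shares were 0.77% and 1.33%, and the median of the list was 0.23. E2f8, an atypical E2F that represses its family's targets, was 6.92 and 6.21 against 8.40 and 8.73 and rose by 2.00 (adjusted p = 0.0176). Its partner E2f7 rose by 1.80. Cdkn2c, the p18 inhibitor of Cdk4 and Cdk6, was 6.76 and 5.79 against 8.44 and 8.45 and rose by 2.17, and Cdk6 itself rose by 1.05. The CD34+Flt3- arrays were higher in all of these. Ccnd2, cyclin D2, was 11.69 and 11.65 against 10.91 and 10.56 and fell by 0.94 (adjusted p = 0.0359). The list of inhibitors and quiescence genes leaves out Cdkn2c, which is counted above with the G1 genes. In it 2 of 27 fell (7.41%, against 1.33% of all genes), with a median of -0.53. These were Cdkn1c and Txnip, a brake on glucose uptake known from quiescent stem cells, at 11.42 and 11.27 against 9.36 and 9.04 (fall 2.14, adjusted p = 0.00889). Without CD34-Flt3- replicate 1 and 2 the falls of this list numbered 4 and 5. No G1 or E2F gene passed without CD34+Flt3- replicate 1 or either CD34+Flt3hi array.

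Granule and myeloid progenitor genes gave 7 rises (20.6%) and 1 fall (2.94%) of 34, against 0.77% and 1.33% of all genes. Their median was 0.22. Beside Mpo, Ctsg and Cd48, Nkg7, a granule membrane protein of cytotoxic cells, was 7.63 and 8.23 against 10.10 and 10.07 and rose by 2.15 (adjusted p = 0.0088). Cst7, Ms4a3 and Plac8 rose by 1.96, 1.93 and 1.08. Elane, neutrophil elastase, differed by 0.85 (adjusted p = 0.151) and Prtn3, proteinase 3, by 0.24 (adjusted p = 0.731), and neither passed. Gstm1 was the member that fell. The rises numbered 8 without either CD34-Flt3- array and 4 without CD34+Flt3- replicate 1 or either CD34+Flt3hi array. Among 30 myeloid transcription factors and growth factor receptors, 2 fell (6.67%, against 1.33% of all genes), with a median of 0.12. These were Il6st, the gp130 chain of interleukin 6 type receptors, and Tnfrsf1b, a TNF receptor, with a fall of 1.43. Il6st was 7.99 and 7.25 against 5.80 and 6.03 (fall 1.71, adjusted p = 0.0283) and stood at 7.59 and 7.43 in CD34+Flt3hi cells. Neither receptor passed without CD34+Flt3- replicate 1 or either CD34+Flt3hi array, and the list gave 2 rises and 1 fall without CD34-Flt3- replicate 2.

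Erythroid genes gave 5 falls of 37 (13.5%, against 1.33% of all genes) with a median of -0.55. Ermap, an erythroblast membrane protein, was 10.37 and 7.45 in CD34-Flt3- cells and 5.49 and 5.17 in CD34+Flt3- cells, a fitted fall of 3.58. It was lower on both CD34+Flt3- arrays, but the difference was -2.12 without CD34-Flt3- replicate 1 and -5.03 without replicate 2. Aqp1, a water channel, and Blvrb, a biliverdin reductase, fell by 2.04 and 1.55 beside Car1 and Gfi1b. The fall of Aqp1 was 2.70 without CD34+Flt3- replicate 1 and 1.38 without replicate 2. Klf1, a master factor of red cells, was 9.92 and 7.46 against 7.95 and 5.96 (difference -1.73, adjusted p = 0.285), and its arrays overlapped. Gata1 differed by -0.15. The median difference between the CD34-Flt3- arrays was 0.60 over this list, with replicate 1 the higher. The 5 falls became 14 without replicate 2, and 1 without CD34+Flt3- replicate 1 or either CD34+Flt3hi array.

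Megakaryocyte and platelet genes gave 2 falls of 35 (5.71%, against 1.33% of all genes), Vwf and Itgb3. Their median of -0.15 turned to 0.03 under a second quantile normalization and to 0.16 without CD34+Flt3- replicate 2. Of 21 mast cell and basophil genes 1 rose (4.76%, against 0.77% of all genes). This was Ms4a2, the beta chain of the IgE receptor, with a rise of at least 2.14-fold from below background. The list's median of 0.13 turned to -0.09 with the title code as a block and to -0.04 without CD34+Flt3- replicate 1. The fitted difference of Ms4a2, 1.65, was 1.0 without CD34+Flt3- replicate 1 and 2.29 without replicate 2. Early lymphoid genes gave 1 rise (2.33%) and 2 falls (4.65%) of 43, against 0.77% and 1.33% of all genes. Their median was -0.36. Satb1, a chromatin organiser needed for lymphoid priming, rose by 1.47. Ltb, lymphotoxin beta, fell by 1.38, and Gimap6, a GTPase of lymphocytes, by 1.51, though another Gimap6 probe set differed by 0.89. The lymphoid list had 2 rises and 6 falls without CD34-Flt3- replicate 2, and 1 rise, with no fall, without CD34+Flt3- replicate 1. The platelet list had 4 falls without CD34-Flt3- replicate 1, 1 rise and 3 falls without CD34-Flt3- replicate 2, and 3 falls without CD34+Flt3- replicate 1. No gene of these lists passed without either CD34+Flt3hi array, and Ms4a2 also missed the threshold without CD34+Flt3- replicate 1.

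MHC class II and interferon response genes gave 5 falls of 46, where 1.33% of all genes fell, with a median of -0.31. H2-Aa, a class II alpha chain, was 10.35 and 10.52 in CD34-Flt3- cells and 8.41 and 8.62 in CD34+Flt3- cells and fell by 1.92 (adjusted p = 0.022). Cd74, the invariant chain, was 7.69 and 7.56 against 6.16 and 5.71, a fall of 1.69 (adjusted p = 0.0306). H2-Eb1, a class II beta chain, was 8.50 and 8.12 against 6.73 and 6.72, a fall of 1.59 (adjusted p = 0.0365). All 3 class II genes were lower on both CD34+Flt3- arrays. In CD34+Flt3hi cells H2-Aa stood at 8.79 and 9.87 and H2-Eb1 at 7.16 and 7.91. The interferon-induced genes Iigp1 and Rsad2 fell by 2.05 and 1.48, and the fall of Iigp1 was 1.39 and 2.71 without CD34-Flt3- replicate 1 and 2. Without CD34-Flt3- replicate 2 the list gave 2 rises and 12 falls with a median of -0.58, and without replicate 1 the median was -0.13. No gene of the list passed without CD34+Flt3- replicate 1, and 1 fell without either CD34+Flt3hi array.

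Cytokine and growth factor receptors with their SOCS inhibitors gave 2 rises (3.23%) and 4 falls (6.45%) of 62. Over all genes the shares were 0.77% and 1.33%, and the median of the list was -0.26. Cish, a feedback inhibitor induced by STAT5, was 8.66 and 8.56 against 6.83 and 6.51 and fell by 1.94 (adjusted p = 0.0141), and Socs2 fell by 1.58. Kdr, a VEGF receptor, fell by 1.42. Ifngr2, a chain of the interferon gamma receptor, rose by 2.10 and Pdgfrb, a PDGF receptor, by 1.62. Of 42 TGF-beta and BMP genes 1 fell (2.38%), close to the 1.33% of all genes, and the median was -0.37. This was Bmp4, which fell at least 2.50-fold. Adhesion, homing and cytoskeleton genes gave 4 falls of 63 (6.35%, against 1.33% of all genes) and a median of -0.12. These falls were Fscn1, Jam2, Itgb3 and the tetraspanin Cd82, which fell by 1.32. Without CD34-Flt3- replicate 2 the receptor list gave 6 rises and 9 falls, and the TGF-beta list gave 4 falls without either CD34-Flt3- array. Without CD34+Flt3- replicate 1 the receptor list gave 2 falls, the adhesion list 1 and the TGF-beta list none. Without either CD34+Flt3hi array only 1 fall, in the adhesion list, passed in these 3 lists.

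Of 37 glycolysis and hypoxia genes 3 fell, where 1.33% of all genes did, with a median of -0.35. The falls numbered 8 and 5 without CD34-Flt3- replicate 1 and 2, and none passed without CD34+Flt3- replicate 1 or either CD34+Flt3hi array. Aldoa, an aldolase, was 11.41 and 11.56 against 10.29 and 10.25 and fell by 1.21 (adjusted p = 0.0176). Aldoc and the phosphofructokinase gene Pfkm fell by 1.34 and 1.16, and another Aldoc probe set differed by 0.44. Of 49 genes of the Myc network and ribosome biogenesis 1 fell (2.04%), close to the 1.33% of all genes, with a median of -0.22. This was Mycn, a Myc family factor, which fell by 2.02, or by 1.32 and 2.72 without CD34-Flt3- replicate 1 and 2. Other Mycn probe sets differed by -0.18 and -0.16, and Mycn missed the threshold without CD34+Flt3- replicate 1 or either CD34+Flt3hi array. No gene passed limma's test among 74 mitochondrial ribosomal protein genes (0 called, 3 at an unadjusted p under 0.05), 41 proteasome genes (0 called, 5 unadjusted) and 43 cytosolic ribosomal protein genes (0 called, 4 unadjusted). Of 72 oxidative phosphorylation genes 0 passed in limma, while 16 had an unadjusted p under 0.05, 13 of them higher. Counts of 0 in lists of this size lie close to the 2.1% called over all genes. The medians of these 4 lists lay between -0.14 and 0.13, and all but that of oxidative phosphorylation changed sign in at least 1 setting or without 1 array. Their members with the largest differences were Mrps18c at 0.87 (adjusted p = 0.117), Psmd7 at -0.83 (0.24), Cox7c at -1.08 (0.259) and Rps6 at -0.74 (0.117).

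**Figure D4:**
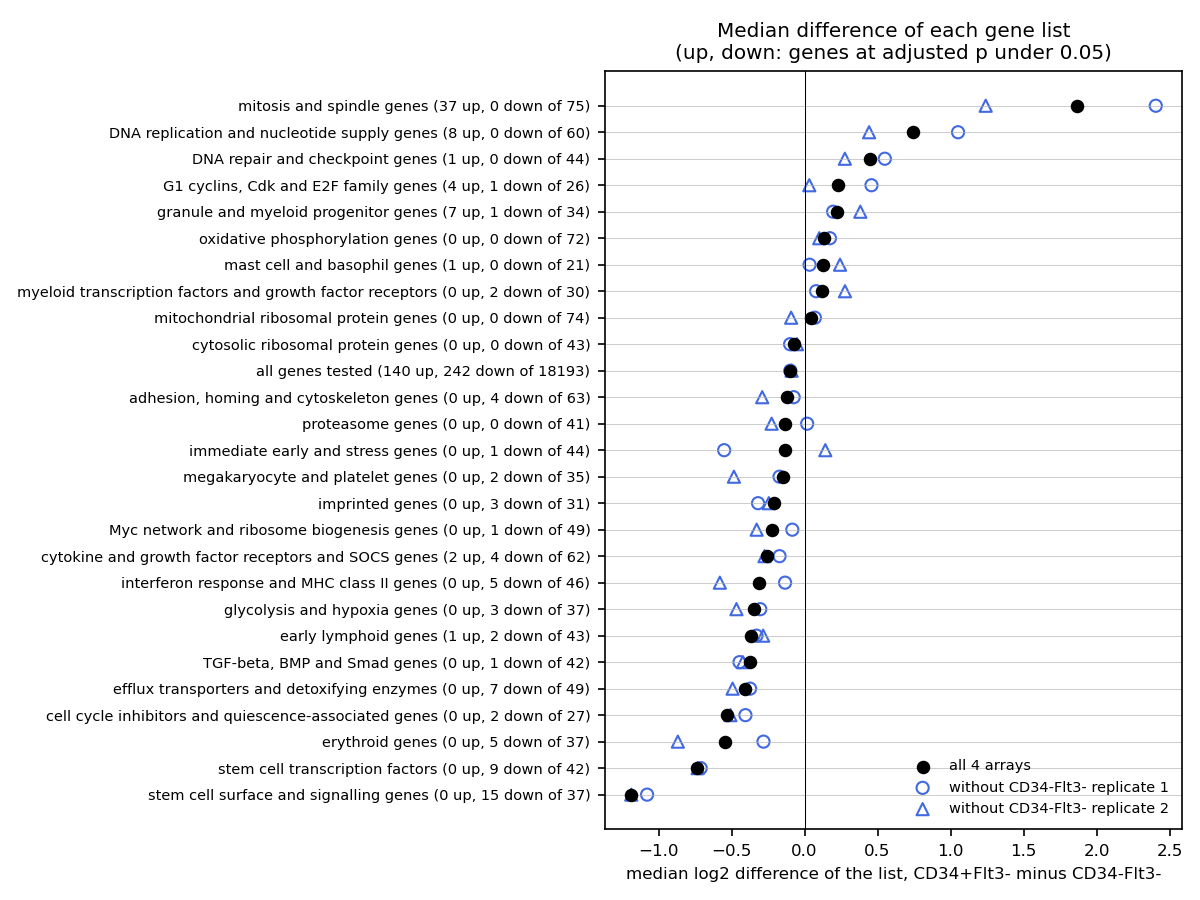
The median log2 difference of each list, CD34+Flt3- minus CD34-Flt3-, is drawn on the x axis from all 4 arrays (filled circle) and without CD34-Flt3- replicate 1 (open circle) or replicate 2 (triangle), with the genes called higher and lower beside each name. The mitosis list moves from 1.24 to 2.40 between the open symbols, and the stem cell surface list from -1.19 to -1.08. Not drawn are the surface list medians without CD34+Flt3- replicate 1 and 2, which were -1.37 and -0.91.

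The differences between the CD34-Flt3- arrays had their own leading genes. Ighm, the immunoglobulin mu heavy chain, was 11.59 on replicate 1 and 5.38 on replicate 2, against 6.26 and 7.58 in CD34+Flt3- cells and 11.43 and 11.50 in CD34+Flt3hi cells. Slc40a1, the iron exporter ferroportin, was 8.18 and 4.56, and Igkv8-30, a light chain variable segment, 7.41 and 4.14. Both lay within 1 log2 unit of background on the CD34+Flt3- arrays. Ccna2, Kpna2, a nuclear import receptor, and Gsdme, a gasdermin, were the other genes with the largest excess of replicate 1 over replicate 2. Higher on replicate 2 were Mid1 (5.10 and 8.87), the chemokine receptor Cxcr4 (5.20 and 8.76) and the Notch target Hes1 (6.64 and 10.19). Nr4a2 and Atf3, both rapidly induced by stress, stood at 6.88 and 9.61 and at 5.40 and 8.10, and Erdr1 at 8.60 and 11.30. Over 44 immediate early and stress genes the median of replicate 1 minus replicate 2 was -0.75, and replicate 1 was the higher in 10.

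The 1 fall of the immediate early list was Dusp4, a phosphatase of MAP kinases, at 8.45 and 9.30 against 6.29 and 6.48 (fall 2.49, adjusted p = 0.0246). With 2.27% lower, the list lay close to the 1.33% of all genes. Its median of -0.14 turned to 0.04 under a second quantile normalization and to 0.14 without CD34-Flt3- replicate 2, with 4 rises and 3 falls, and was -0.55 without replicate 1, with 10 falls. Some genes followed the title code in place of the population, and these were chosen after their values were seen. Ctse, an intracellular protease, was 9.26 and 11.76 in CD34-Flt3- cells, 8.59 and 11.86 in CD34+Flt3- cells and 8.23 and 12.19 in CD34+Flt3hi cells. Ctse, Cxcr4 and Mid1 were over 2-fold higher on the code A array of all 3 populations. H3f3b, a histone gene, was over 2-fold lower on code A in all 3, at 9.50 and 7.45, 10.17 and 8.23, and 9.53 and 8.15.

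**Figure D5:**
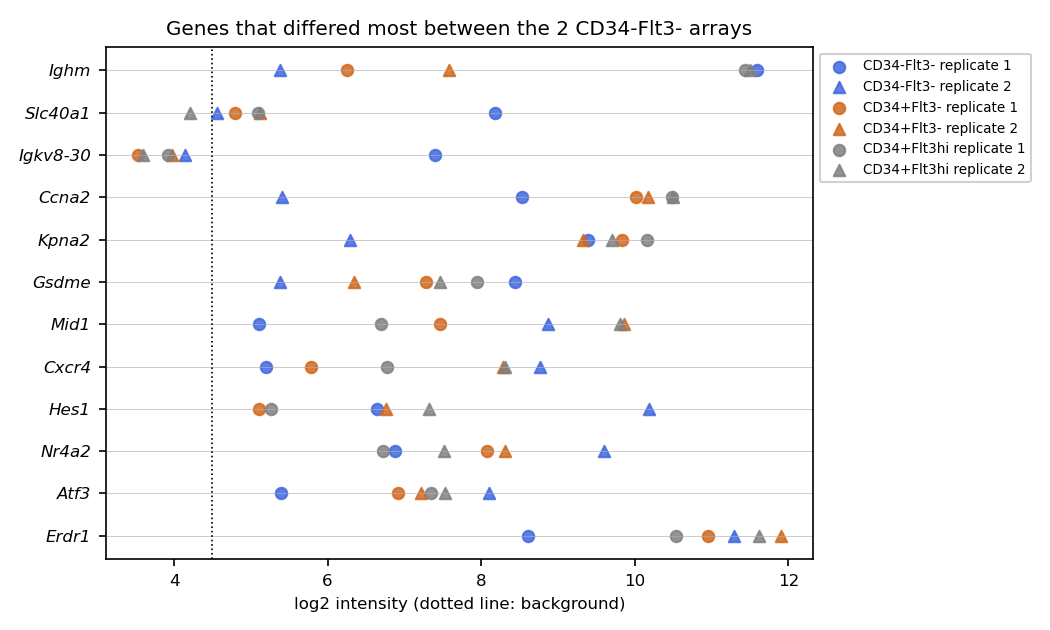
The 12 genes that differ most between the CD34-Flt3- arrays, 6 in each direction, are drawn as log2 intensity (x axis) on all 6 arrays, with circles for replicate 1 and triangles for replicate 2. Mid1 and Cxcr4 show the triangle above the circle in all 3 populations, while Ighm is high on CD34-Flt3- replicate 1 and both CD34+Flt3hi arrays.

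Markers of other marrow cells were read on the same arrays as sums of linear intensity. Such a sum leans on its brightest probe sets, so it can follow 1 gene and does not measure an amount of cells. The 20 neutrophil and macrophage markers summed to 478 and 582 in CD34-Flt3- cells and to 600 and 733 in CD34+Flt3- cells. S100a8, Ltf, Lcn2, Itgam, C1qb and Mrc1 were below background on every array. The 9 mature erythroid markers summed to 356 and 219 against 205 and 211, with Hbb-b2 below background, and CD34-Flt3- replicate 1 was the highest. The 13 B lineage markers summed to 601 and 583 against 473 and 526, with Ms4a1 and Pou2af1 below background. The other members of these lists, 14, 8 and 11 in the order given, were above background on at least 1 array. In these 3 lists 0 genes passed limma's test, while 4, 1 and 2 had an unadjusted p under 0.05.

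The 17 T and NK markers summed to 916 and 1345 against 2049 and 1966, and Nkg7, counted among the myeloid genes too, was the 1 that rose. Cd3g, Cd5 and Trat1 were below background. The 20 endothelial markers summed to 5044 and 4285 against 1843 and 1709, and 4 fell (20%, against 1.33% of all genes). These were Vwf, Robo4, Kdr and Podxl, of which Vwf and Robo4 also stand in the stem cell list. Cdh5, the defining cadherin of endothelium, and Lyve1 were below background on all arrays. Of 14 dendritic cell markers H2-Aa and Cd74 fell (14.3%, against 1.33% of all genes). The sums were 2517 and 3149 against 1488 and 2086, with Xcr1 and Klrk1 below background. These sums include the sort antigen Flt3. The 16 stromal markers summed to 562 and 761 against 808 and 804, with Pdgfrb the 1 rise. Above background on at least 1 array were 14 of 17 T and NK, 18 of 20 endothelial, 12 of 14 dendritic and 12 of 16 stromal markers. The median log2 differences of these lists were 0.06, -0.46, -0.20 and 0.09 in the same order. The part of such cells in the granule, erythroid, class II and surface gene results was not tested.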

How the data were processed

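RNA of sorted LSK cells was amplified and hybridised to Affymetrix arrays. The deposited values were made with RMA, the robust multi-array average, per the submitters' processing notes, which give no version here. They are taken as linear intensity, an inference from their range of 6.50 to 24173 in the deposited table, and their log2 was used. The table held 45101 probe sets, of which 64 were controls, 9160 had no symbol, 932 had several and 34945 had 1. Entrez identifiers served to update symbols, with 99.4% of probe sets matched. The brightest probe set of each of 18193 genes was kept, and 9010 genes had several.

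A limma model (version 3.58.1, R 4.3.3) of the 3 group means was fitted to the 6 arrays, using an intensity trend (3 residual and 6.86 prior degrees of freedom, residual SD 0.24). Two-sided p-values were adjusted over the 18193 genes by the Benjamini-Hochberg method, and the threshold was 0.05. Where a group mean lay below background, values below it were raised to it and the result is printed as "at least" a fold. Precision is limited by the number of arrays.

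The members and gene lists were chosen with earlier results of these data known. Named genes are the 12 rises and 12 falls with the widest gap between nearest arrays, passing over predicted names, up to 4 called members per list by adjusted p, or up to 2 by size where none passed, the sort antigens and the 6 genes each way that differ most between the CD34-Flt3- arrays. Other list members named here were chosen after their values were seen. Of the 75 called genes named by the rule, 42 had another probe set, and in 17 of these at least 1 had the opposite sign. The pipeline was tested on simulated data. Promoter windows come from RefSeq. Figures were drawn with matplotlib 3.10.9.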

Additional observations from a re-analysis of the deposited data

How the results depend on the processing

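The counts of rises and falls were 140 and 242. Leaving out 1 array gave 0 to 360 rises and 0 to 742 falls. With only the 4 arrays compared they were 14 and 33, with the title code as a replicate block 519 and 1060, and with a mean over the probe sets of each gene 70 and 129. An adjusted p under 0.10 gave 273 and 570. A second quantile normalization gave 253 rises, and its 245 falls stayed within 1.5 times. No trend, median centring and leaving out genes below background kept both counts within 1.5 times. The block rests on code A alone for CD34-Flt3- cells, and the labels do not say that a code pairs the samples. Of the 382 calls, 2 changed sign with the mean over probe sets and none in the other settings. Of the 75 named calls, 29 passed with the 4 arrays alone, 74 with the block, 64 without the trend and 42 with that mean, and 0 changed sign in any setting run. Signals near background limit the folds of 40 falls and 11 rises. The cause of these changes was not tested. Fewer arrays also leave fewer degrees of freedom, and a population left with 1 array adds nothing to the estimate of the spread. The part of these in the counts was not tested either.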
